A study of Mus musculus with 6 samples.

Results

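The transforming growth factor beta (TGF-beta) and SMAD genes of the array were the ligand Tgfb1, the receptors Tgfbr1 and Tgfbr2, the signal carriers Smad2, Smad3 and Smad4, the inhibitory Smad7, and the nuclear repressors Ski, Skil and Tgif1. They were taken as every probe of the array, controls left out, whose gene name is one of these 10 symbols. This found 18 probes of 41174 and 10 gene names of 28090, and all 10 genes had at least 1 probe. VIP-treated CD4 T cells, isolated at rest from spleens of the strain C57BL/6J, were compared with untreated cells of the same strain and tissue, 6 biological replicates in each group. VIP stands for vasoactive intestinal peptide. Each of 6 arrays carried the VIP-treated and the untreated sample of 1 replicate, with VIP in Cy5 on replicates 1, 3 and 5 and in Cy3 on replicates 2, 4 and 6. Mice were males and females aged 6 to 32 weeks, and 5 to 10 spleens went into each sample, so a sample is a pool of animals and not 1 mouse. Cells were taken up with anti-CD4 magnetic beads, and neither the VIP dose nor the time of exposure was given in the labels.

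TGF-beta is made as a latent complex and, once freed, binds a receptor pair in which the type II chain Tgfbr2 switches on the type I chain Tgfbr1. Tgfbr1 then phosphorylates Smad2 and Smad3, which join Smad4, enter the nucleus and regulate genes, while Smad7 blocks the receptor and Ski, Skil and Tgif1 restrain the SMADs at DNA. In CD4 T cells the pathway restrains activation and helps to set regulatory and Th17 fates. VIP is a neuropeptide whose receptors raise cyclic AMP in T cells.

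Of the 18 probes, the 2 whose data are shown most closely are printed here, 5′ to 3′ and with no base in capitals, at their mm9 position in the files. The Tgfbr2 probe is shown because it alone passed the test, and it lies at chr9:116019196-116019255 on the minus strand. The Tgfb1 probe is shown because it was spotted 10 times on every array, and it lies at chr7:26489877-26489936 on the plus strand.
Tgfbr2 probe 2: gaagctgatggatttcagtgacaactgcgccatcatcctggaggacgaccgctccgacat
Tgfb1: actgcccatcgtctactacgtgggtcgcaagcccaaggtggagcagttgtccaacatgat
Both are 60 bases long with 55.0% G and C, the highest share among the 18 probes, of which Smad7's had the lowest at 25.0%. Read in the sense direction, the Tgfbr2 sequence has no stop codon in 1 of 3 frames and the Tgfb1 sequence has none in 2 of 3. Whether a probe lies in an exon or a UTR is not given, since no exon annotation of mm9 was used here.

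With local background included, the median spot signal per array ranged from 83.6 to 108 in Cy3 and from 148 to 235 in Cy5. The T cell markers Cd3e and Cd4 were well above background in all 12 samples and did not pass the test, with log2 ratios of 0.025 (5 arrays) and 0.012. Some defining markers of other cells were also above background, namely Cd8a (CD8 T cells) and Adgre1 (macrophages) in all 12 samples and Pf4 (platelets) on 5 VIP-treated and 6 untreated samples. Over the lists of markers of other cell types, Xbp1 of the plasma cell list was the only called gene and was higher with VIP. The other 4 of the 5 plasma cell markers tested had ratios below 0. Of 8 regulatory T cell markers tested, none was called. Of 9 CD4 T cell markers tested, Thy1 was lower with VIP, at a log2 ratio of -0.29. On replicates 3 and 6 sex-linked transcripts differed between the treatments, with a log2 ratio for Xist of -6.12 on replicate 3 and 2.03 on replicate 6, while on the other 4 arrays it stayed between -0.083 and 0.34. In such bulk samples, fewer cells of a type and less RNA per cell cannot be told apart.

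None of the 10 genes passed the test between VIP-treated and untreated cells. The test was limma's moderated test on the log2 ratio, 2-sided, over 19225 genes, each represented by its brightest probe. Genes under 0.05 after Benjamini-Hochberg adjustment over all of them were called. By that rule 593 genes were called, 3.08%, of which 330 were higher (1.72%) and 263 lower (1.37%) with VIP. The split depended on the scaling, with 210 higher and 98 lower under median centring and 29 and 9 with the scanner software's processed signals. At an unadjusted p under 0.05, again none of the 10 passed, against 16.7% of all genes (7.50% higher and 9.21% lower). Among the 10, 5 ratios were above 0 and 5 below, with a median log2 ratio of 0.0030, beside -0.0047 over all genes.

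The ratios of the 10 genes were small and their intervals narrow. Log2 ratios ran from -0.098 for Smad7 to 0.083 for Tgfbr2, and all 10 lay within 0.1 of 0, as did 78.9% of all genes tested. The 95% intervals of all 10 stayed within a 1.2-fold difference in either direction, the widest reaching 1.197-fold. In each of the 18 probes, the log2 intensities of VIP-treated and untreated samples overlapped. This includes the Tgfbr2 probe that passed in the fit on all probes, so overlap does not show that a probe was unchanged. The share of all probes on the array with such overlap is not given here.

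**Figure D1:**
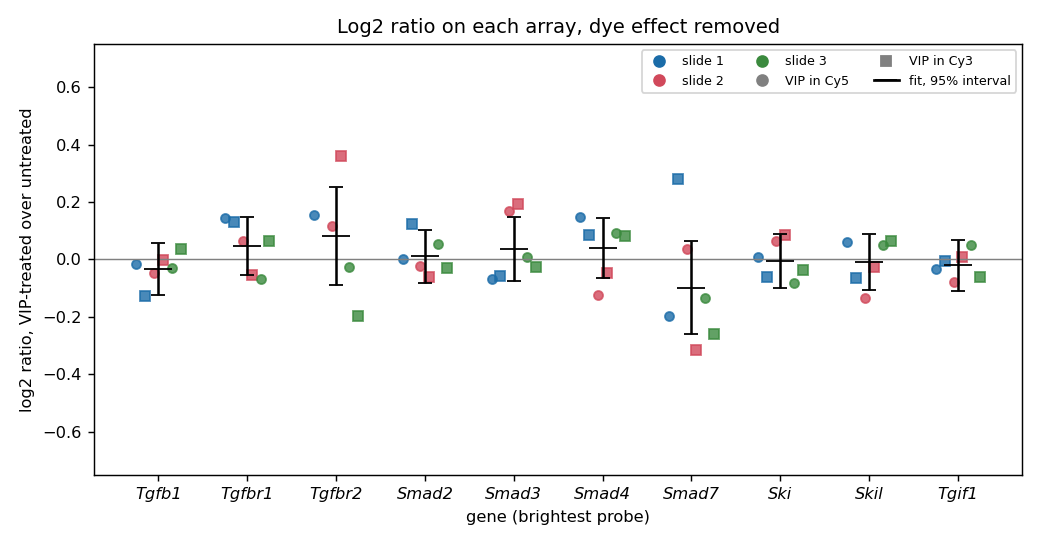
Log2 ratio of VIP-treated over untreated cells (y axis, dye effect removed) for the brightest probe of each of the 10 genes (x axis), with 1 point per array, coloured by slide and shaped by dye, and the fitted value with its 95% interval in black. Every interval crosses 0, the points of Smad7 reach from -0.32 to 0.28, and Tgfbr2 has points on 5 arrays.

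Tgfb1 encodes the ligand that T cells themselves secrete and respond to. Its normalized log2 intensity was lowest at 10.74, median 10.92 and highest at 11.21 in the 6 VIP-treated samples, against 10.74, 10.96 and 11.26 in the 6 untreated samples. The groups covered nearly the same range, and the fitted log2 ratio was -0.032 ± 0.041 (SE, 6 arrays), with an adjusted p of 0.770 by limma.

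Because the Tgfb1 probe has 10 spots per array, its repeatability within an array could be read directly. Before the dye effect was removed, the mean log2 ratio of its spots was 0.11, 0.075 and 0.092 on replicates 1, 3 and 5, where VIP was in Cy5. It was -0.25, -0.13 and -0.088 on replicates 2, 4 and 6, where VIP was in Cy3. The sign thus followed the dye on all 6 arrays, and the fitted dye effect was 0.12, larger than the fitted ratio. Within an array the SD over the spots was 0.038 to 0.096, with 9 spots used on replicate 2 and 10 on the other arrays. The spots are technical repeats and were averaged to 1 value per array before the test.

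**Figure D2:**
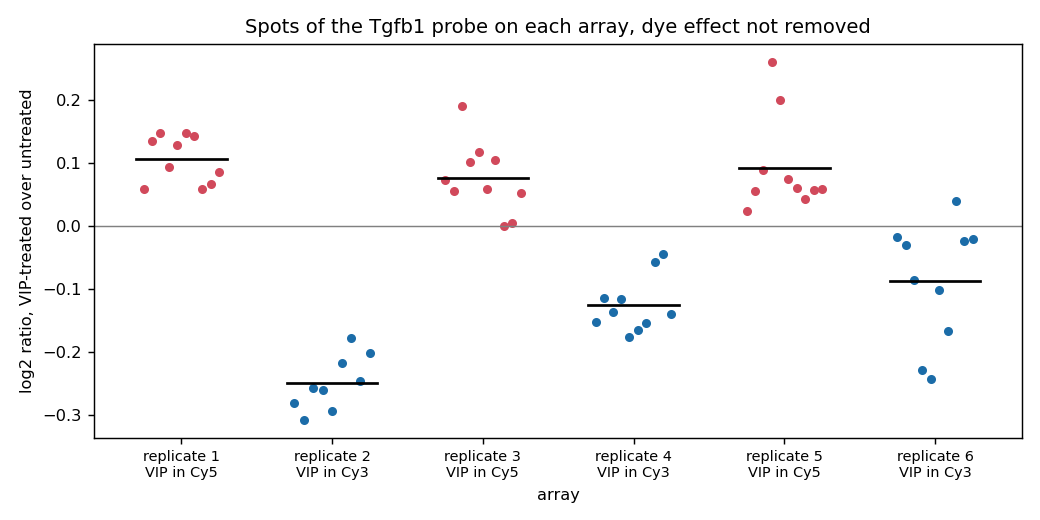
Log2 ratio of VIP-treated over untreated cells (y axis, dye effect not removed) for each used spot of the Tgfb1 probe on the 6 arrays (x axis), red where VIP was in Cy5 and blue where it was in Cy3, with the mean as a line. The array means are between 0.075 and 0.11 with VIP in Cy5 and between -0.25 and -0.088 with VIP in Cy3.

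Tgfbr2, the ligand-binding type II receptor, has 3 probes, numbered here along the direction of transcription. Probe 1 (chr9:116039845-116039904) and probe 3 (chr9:115997155-115997214) lie on either side of probe 2, at distances of 20649 and 22041 bases. On probe 3, the brightest, log2 intensity was 14.90, 15.23 and 16.20 in VIP-treated samples (lowest, median, highest), against 14.92, 14.93 and 16.39 in untreated samples. Its spot on replicate 2 was marked as an outlier by the scanner software and left out, so the value rests on 5 arrays. Probe 3 was higher with VIP on 3 of these 5 arrays after removal of the dye effect, and both groups held 1 sample far above the rest, from replicate 6. Whether spots of probe 3 were saturated was not examined. The log2 ratio was 0.083 ± 0.076 (SE), with an adjusted p of 0.659. Single arrays moved this value, to 0.22 without replicate 6 and to -0.057 without replicate 4, and it was not called in either fit (adjusted p = 0.150 and 0.716). Without both replicates 3 and 6 it was 0.21 (adjusted p = 0.206).

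Probe 2 of Tgfbr2 was the only one of the 18 that passed when the fit was run on all 27454 probes, where 2.88% of probes passed. Its log2 intensity was 7.91, 8.04 and 8.49 in VIP-treated samples (lowest, median, highest), against 7.67, 7.83 and 8.30 in untreated samples. The ranges overlapped, but within each of the 6 arrays the VIP-treated sample was the higher one, before and after removal of the dye effect. The 6 array ratios lay between 0.082 and 0.32 before the dye effect was removed and between 0.18 and 0.24 after. The dye term was fitted to these same 6 arrays. The log2 ratio was 0.21 ± 0.039 (SE), or 1.16-fold (95% interval 1.09 to 1.23), with an unadjusted p of 2.49e-04 and an adjusted p of 0.0179. Within the 3 slides it was 0.20, 0.20 and 0.22, and with slide as a block the adjusted p was 0.0318.

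The call on probe 2 was lost in 9 of 18 alternatives to the processing, though its value stayed between 0.20 and 0.31 in all of them. Leaving out replicate 1, 5 or 6 gave adjusted p-values of 0.0666, 0.0927 and 0.0552, and leaving out replicates 3 and 6 together gave 0.0858.

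Probe 1 of Tgfbr2 was well above background on 4 VIP-treated and 2 untreated samples, and it passed the filter on dim probes through the VIP-treated ones. Its log2 ratio was 0.011 ± 0.043 (SE), with an adjusted p of 0.938 over all probes. Probes 1 and 3 were not called, and whether they differ from probe 2 could not be settled with these arrays. Probe 2 exceeded probe 1 by 0.20 in log2 ratio, on 6 of 6 arrays with the dye effect removed and on 5 of 6 with it left in. An exact 2-sided sign-flip test on the ratios with the dye effect left in gave p = 0.0625, where the smallest possible value is 0.03125, and 0.63 after adjustment over the 10 probe pairs compared. Probe 3 minus probe 2 was -0.13 as a difference of the fitted ratios, which rest on 5 and 6 arrays. The sign-flip test took the 5 shared arrays with the dye effect left in, so it did not test that fitted difference. It gave an exact p of 0.8125, where the smallest possible value of 0.0625 cannot pass.

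**Figure D3:**
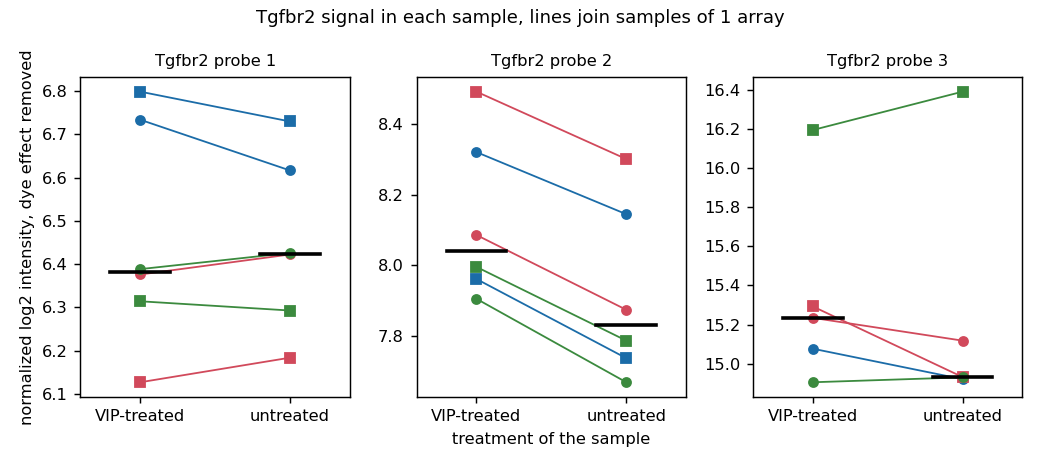
Normalized log2 intensity with the dye effect removed (y axis, a separate range for each probe) of the 3 Tgfbr2 probes in VIP-treated and untreated samples (x axis), with lines joining the samples of 1 array, coloured by slide (blue 1, red 2, green 3), circles for VIP in Cy5 and squares for VIP in Cy3, and black bars at the medians. All 6 lines of probe 2 lie higher at the VIP-treated end, at array ratios of 0.18 to 0.24, while those of probes 1 and 3 run both ways.

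Tgfbr1 encodes the type I receptor kinase that phosphorylates Smad2 and Smad3. On its brightest probe (probe 2, chr4:47427421-47427480) log2 intensity was 10.06, 10.82 and 11.28 in VIP-treated samples, against 9.99, 10.84 and 11.13 in untreated samples, as lowest, median and highest. The groups were interleaved. Its log2 ratio was 0.047 ± 0.046 (SE, 6 arrays, adjusted p = 0.682), and probe 1, which the files place over 3659 bases of chromosome 4, gave 0.066 ± 0.048. The raw ratio of probe 2 was above 0 on the 3 arrays with VIP in Cy5 and below 0 on the 3 with VIP in Cy3, with a dye effect of 0.24.

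Smad2 and Smad3 are the receptor-activated SMADs of the TGF-beta and activin branch. Smad2 (chr18:76464620-76464679) had log2 intensities of 11.64, 11.80 and 11.89 in VIP-treated samples, against 11.59, 11.79 and 11.91 in untreated samples. These were the same ranges within 0.1 at both ends, and the log2 ratio was 0.010 ± 0.042 (SE, adjusted p = 0.940). Smad3 (probe 2, chr9:63495131-63495190) had 10.19, 10.56 and 11.40 in VIP-treated samples, against 10.26, 10.41 and 11.43 in untreated samples.

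The Smad3 groups overlapped over nearly their whole range, and the ratio was 0.037 ± 0.050 (SE, adjusted p = 0.786). After removal of the dye effect the Smad3 ratio was above 0 on 3 arrays, among them both arrays of slide 2, at 0.17 and 0.19. Within slides it was -0.063, 0.18 and -0.0097. Smad3 probe 1, 2361 bases away, gave 0.081 ± 0.046 (adjusted p = 0.432 over all probes), higher on 5 of 6 arrays after removal of the dye effect.

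Smad4 is the common partner that both SMAD branches need. Its brightest probe (probe 1, chr18:73798705-73798764) had log2 intensities of 14.19, 14.77 and 14.90 in VIP-treated samples, against 14.11, 14.65 and 14.85 in untreated samples. The lowest, the median and the highest value were each slightly higher with VIP, within overlapping ranges. The log2 ratio was 0.039 ± 0.048 (SE, adjusted p = 0.757), and probe 2, 58 bases away, gave 0.048 ± 0.054. Both probes were higher with VIP on 4 of 6 arrays after removal of the dye effect.

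Smad7 is the inhibitory SMAD that binds the activated receptor and brings ubiquitin ligases to it, and TGF-beta itself induces it. Its log2 intensity (chr18:75555371-75555430) was 12.38, 12.60 and 13.02 in VIP-treated samples, against 12.48, 12.72 and 12.93 in untreated samples. The lowest and the median value were lower with VIP and the highest was higher. Smad7 had the lowest p among the 10 genes, with a log2 ratio of -0.098 ± 0.073 (SE), an unadjusted p of 0.206 and an adjusted p of 0.558.

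The 6 arrays did not give the same direction for Smad7. The raw ratio was -0.25, -0.018, -0.26, -0.19 and -0.21 on replicates 1, 3, 4, 5 and 6, and 0.33 on replicate 2. Without replicate 2 the fitted ratio was -0.19 with an adjusted p of 0.0903, and without replicate 4 it was -0.044 with an adjusted p of 0.830. Smad7 was not called in any of these fits.

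The genes whose levels were most like those of Smad7 over the 12 samples, out of 17201 compared and with each gene's mean per dye removed, were Phc3, Hmbox1 and Miga1. Pearson's r with Smad7 was 0.91, 0.90 and 0.87, given as a description, since 2 samples share each array. None of these genes was called between VIP-treated and untreated cells.

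Ski and Skil (also called SnoN) bind SMAD complexes and recruit corepressors, and both proteins are degraded when TGF-beta signals. On the brightest Ski probe (probe 2, chr4:154529811-154529870) log2 intensity was 13.95, 14.08 and 14.96 in VIP-treated samples, against 13.94, 14.08 and 15.00 in untreated samples. Its log2 ratio was -0.0040 ± 0.043 (SE, adjusted p = 0.979), and the other Ski probes gave 0.026 and 0.023. These 3 probes of Ski thus stayed within 0.03 of 0, and the sign of the brightest changed with the processing.

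Skil (probe 2, chr3:31021203-31021262) had log2 intensities of 12.59, 12.92 and 13.20 in VIP-treated samples, against 12.63, 12.96 and 13.18 in untreated samples. Its log2 ratio was -0.0086 ± 0.044 (SE, adjusted p = 0.953), with a dye effect of -0.25. Skil probe 1, 4813 bases away, spread most between arrays of the 18 probes and gave -0.049 ± 0.098 (SE). Its raw ratio was as low as -0.55 on replicate 3 and as high as 0.46 on replicate 6, which are also the arrays with unmatched sex-linked transcripts. Without both arrays probe 1 gave -0.053 and probe 2 gave 0.0042.

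Tgif1 is a homeodomain repressor that competes with coactivators for Smad2 and Smad3. Its log2 intensity (chr17:71194438-71194497) was 12.07, 12.35 and 13.47 in VIP-treated samples, against 12.08, 12.34 and 13.54 in untreated samples. The groups coincided to within 0.1 at all 3 points. The fitted log2 ratio was -0.021 ± 0.040 (SE), with an adjusted p of 0.866.

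Across all 18 probes, 12 log2 ratios were above 0 and 6 below, with a median of 0.025. Of these probes, 17 lay within 0.1 of 0, as did 79.6% of all probes tested, and 16 had a 95% interval within a 1.2-fold difference. Outside that bound were Tgfbr2 probe 2 and Skil probe 1. For the 10 pairs of probes of the same gene, a single pair could not pass the exact sign-flip test after adjustment over the 10, so they are given by size. Outside Tgfbr2 the fitted ratios of a pair differed by at most 0.045. The sign-flip test used ratios with the dye effect left in, and its unadjusted p-values there were 0.75 or more. Where 2 probes have unlike dye effects, their difference changes with the dye swap. These p-values therefore do not show that the probes agree. Probes of 1 gene share its transcripts and are not replicates.

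**Figure D4:**
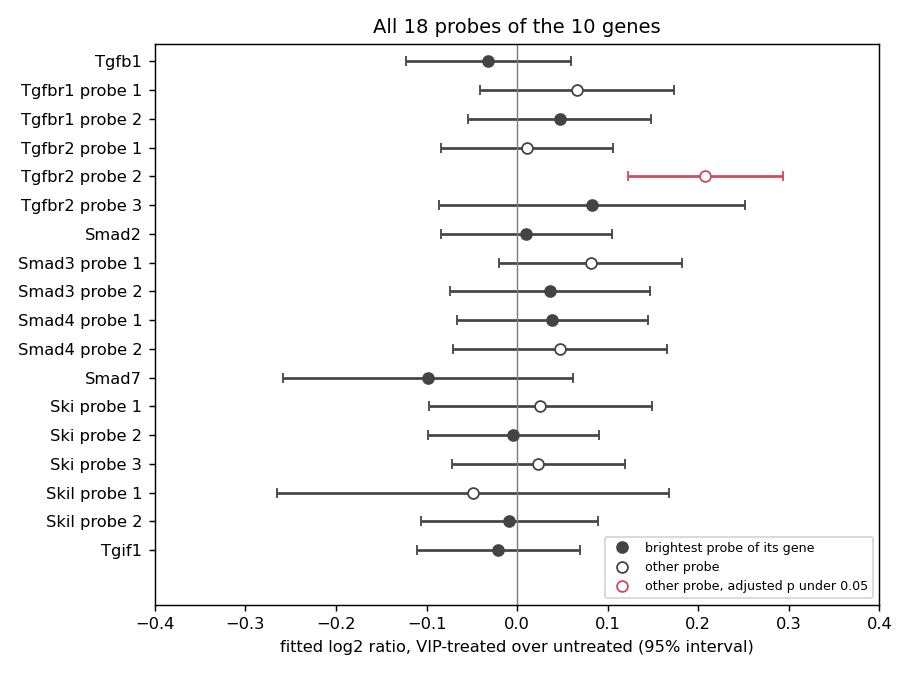
Fitted log2 ratio of VIP-treated over untreated cells with its 95% interval (x axis) for all 18 probes (y axis), filled where the probe stands for its gene and red where the adjusted p was under 0.05. The interval of Tgfbr2 probe 2, at 0.21, is the only one that does not reach 0, and the widest is that of Skil probe 1.

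The other genes of the pathway were read from the same fit, in lists that leave out the 10 genes. Over all 8 lists, 151 genes were tested, of which 3 were higher and 3 lower with VIP at the adjusted threshold, beside the 1.72% and 1.37% of all genes. The median log2 ratio over these genes was 9.4e-04.

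Of 16 genes of ligands and latency, 13 were tested, and 1 was higher and 1 lower with VIP. Tgfb3, another TGF-beta ligand, rose by 0.20 ± 0.039 in log2 ratio (SE, 1.15-fold, adjusted p = 0.0193). Its log2 intensity was 7.42, 7.84 and 8.11 in VIP-treated samples, against 7.24, 7.61 and 7.90 in untreated samples, and the VIP-treated sample was the higher one on 6 of 6 arrays. The ratio was 0.32 with the processed signals or the authors' deposited table, and the Tgfb3 call was lost without replicate 1, 5 or 6 (adjusted p = 0.0831, 0.0995 and 0.0615). Plg encodes plasminogen, whose active form can free TGF-beta from its latent complex, and its brightest probe fell by 0.57 ± 0.12 (adjusted p = 0.0287). That Plg probe was above background on 5 arrays in each group, a second Plg probe gave 0.039, and the value was -1.05 with the processed signals or the authors' deposited table and -0.27 with the mean of its probes. The Plg call was lost without replicate 1, 2, 3 or 6, with an adjusted p of up to 0.111 over single arrays left out.

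Of 16 receptors and coreceptors, 15 were tested, and 1 was higher and 1 lower. Bambi, a pseudoreceptor without a kinase domain that blocks TGF-beta receptors, rose by 0.28 ± 0.057 (SE, 1.21-fold, adjusted p = 0.0272), with 8.93, 9.28 and 9.57 in VIP-treated samples against 8.82, 8.97 and 9.15 in untreated samples. Bambi was higher with VIP on 6 of 6 arrays, but within slides its ratio ran from 0.11 to 0.41, and its call held only without replicate 2 among the 6 fits that leave out 1 array (adjusted p = 0.0146 to 0.118). Amhr2, the type II receptor of anti-Müllerian hormone, fell by 0.22 ± 0.049 (adjusted p = 0.0415) and was lower on 6 of 6 arrays. Amhr2 kept its call only without replicate 6, with adjusted p-values between 0.0218 and 0.141 over the 6 fits.

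No other SMAD was called among the 3 tested of 4. Smad5, which carries bone morphogenetic protein signals, had a log2 ratio of -0.19 ± 0.048 (adjusted p = 0.0579) and was lower with VIP on 6 of 6 arrays, and its other probes gave -0.23 and -0.20. Smad6, the inhibitory SMAD of that branch, gave 0.013 and was above background on 3 VIP-treated and 2 untreated samples.

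Of 41 regulators of receptors and SMADs, 38 were tested and 1 was higher. Zfyve16 (endofin), an endosomal scaffold that binds SMADs, rose by 0.23 ± 0.042 (SE, adjusted p = 0.0172) and was higher on 6 of 6 arrays. A second Zfyve16 probe gave -0.0066, and with the mean of the probes the ratio was 0.11 and no longer called (adjusted p = 0.174). The call was also lost without replicate 1 or 5 (adjusted p = 0.0640 and 0.0821).

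The nuclear partners of SMADs (22 tested of 24) and the SMAD-independent branch (20 of 20) held no called gene. The lowest p among the partners belonged to Sp1, a general activator, with -0.19 ± 0.057 (adjusted p = 0.106), and to Rbl1, the p107 pocket protein, with -0.13 ± 0.046 (adjusted p = 0.194). In the SMAD-independent branch they belonged to the small GTPase Rac1, with -0.21 ± 0.050 on 5 arrays (adjusted p = 0.0547), and to the p38 activator Map2k3, with 0.14 ± 0.039 (adjusted p = 0.0981). A second Rac1 probe gave 0.13. The Rac1 ratio was -0.10 with outlier spots kept, -0.12 with the scanner's processed signals, -0.36 with median centring and -0.019 with the mean of its probes. Among these uncalled genes, Smad5 and Rac1 were each called in 2 of 19 alternatives to the processing, and Sp1 and Gdf15 in 1 of 19.

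Of 35 genes known to respond to TGF-beta, 30 were tested. Bambi, listed here too, was higher, and Itga1, the collagen-binding integrin alpha 1 chain, fell by 0.37 ± 0.075 (SE, adjusted p = 0.0259). The raw ratio of Itga1 was above 0 on 3 arrays, its dye effect was -0.52, and its call was lost without replicate 1, 2, 4 or 6 (adjusted p of up to 0.0881 over the 6 fits). The list's median log2 ratio was 0.023. Among 18 ligands and antagonists of the activin and bone morphogenetic protein branches, 14 were tested and none was called. The lowest p belonged to Gdf15, a stress-induced ligand, with -0.31 ± 0.082 (adjusted p = 0.0740). The Gdf15 ratio was -0.15 without replicates 3 and 6 and -0.21 without replicate 3 alone. The next lowest belonged to Inhba, the activin A subunit (adjusted p = 0.332), which was well above background on 3 VIP-treated and 0 untreated samples. Inhba thus has only a bound in untreated cells and passed the filter through the VIP-treated samples, so no fold is given. Over the alternatives to the processing, the call was lost in 8 of 19 for Tgfb3, 10 of 19 for Zfyve16, 11 of 19 for Bambi and for Itga1, 12 of 19 for Amhr2 and 12 of 18 for Plg. Without replicates 3 and 6, the adjusted p was 0.0679 for Tgfb3, 0.0583 for Zfyve16, 0.121 for Bambi, 0.0565 for Itga1, 0.0243 for Amhr2 and 0.135 for Plg.

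**Figure D5:**
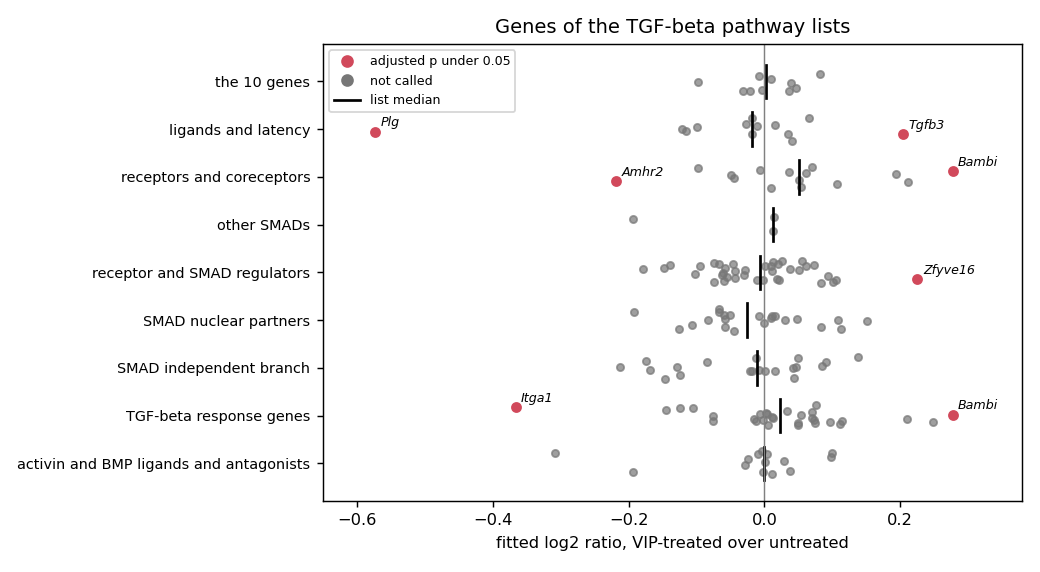
Fitted log2 ratio of VIP-treated over untreated cells (x axis) for the 10 genes and for each tested gene of the 8 pathway lists (y axis, 1 row per list), red and named where the adjusted p was under 0.05, with the list median as a black line. None of the 10 genes is red, and the red points are Tgfb3, Bambi (in both lists that hold it) and Zfyve16 on the right and Plg, Amhr2 and Itga1 on the left.

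RefSeq promoter windows (GRCm38.p6, 250 bases before to 50 after each start) were available for 6 of the 10 genes, in 11 windows. On either strand, the cyclic AMP response element's shorter form TGACG was in none of the 11 and in 20.8% of all 32851 windows, and the full TGACGTCA was in none and in 1.79%. The SMAD-binding box GTCT was in 8 of the 11, beside 88% of all windows. Its extended form CAGACA, which overlaps GTCT on the other strand, was in 3, of Tgfbr1 and Tgif1, beside 21% of all windows. A match is a description of the letters and not of binding.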

How the data were processed

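Cells, groups and probe choice are given above. Per the file headers, the deposited intensity values were extracted with Agilent Feature Extraction 9.5.1.1, and probe positions are on mm9. The authors also deposited a table of log10 ratios, equal to the scanner's log10 ratio with the sign turned on replicates 2, 4 and 6 (largest difference 4.77e-06), and positive with higher VIP values. Each array's median in it was 0, and 12.5% to 24.2% of spots were listed at exactly 0. It served as an alternative.

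Mean signals were corrected with normexp (offset 50) and normalized by loess within arrays with limma 3.58.1 in R 4.3.3. Controls and outlier spots (1.93% to 8.96% per array) were left out, and spots of a probe were averaged. Probes were kept if well above background on 3 or more arrays in either treatment and measured on 2 or more in both dye orientations, which left 27454. Gene names follow the files, updated by RefSeq accession for 24844 of 41174 probes (60.3%). The model had an intercept and a dye term, with 4 residual and 6.54 prior degrees of freedom. Precision is limited by the number of arrays (median standard error 0.0481). Levels are loess and Aquantile normalized channel values with the fitted dye effect shared equally between the channels. Ratios with the dye effect removed use a dye term from the same arrays, so they are not independent readings of each array. The model was tested on simulated data with known changes.

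The 10 genes, the lists and the tests were chosen with earlier results of these data known. All probes of the 10 genes are named. Of each pathway list, called genes are named, or the 2 of lowest p where none was called, and of the genes most like Smad7, 3. The fit is paired within arrays, which rests on the design: both samples of a replicate number share an array. Alternatives covered background correction, normalization, filters, probes per gene, the dye term, slide, pairing, the prior and each replicate left out.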

Additional observations from a re-analysis of the deposited data

How the results depend on the processing

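In 18 alternatives, and in 1 without replicates 3 and 6 that was chosen after seeing the data, none of the 10 genes was called. Called genes over the whole array, 593 as reported, numbered 38 (29 higher, 9 lower) under the processed signals, 41 (31 and 10) with the authors' deposited table, 286 (182 and 104) with an offset of 10, 308 (210 and 98) with median centring, 124 (87 and 37) without the dye term, and 368 (141 lower) without replicates 3 and 6. With outlier spots kept, 149 were lower. With 1 replicate left out the count was 254 to 498, with 151 to 279 higher and 103 to 219 lower. With no replicate block, treating the 12 channels as unpaired samples, 4 genes were called (3 higher, 1 lower), and Tgfbr2 probe 2 was not called (adjusted p = 1.000). The block is the array itself.

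Of the probes of the 10 genes, 1 was called as reported. It was 0 with processed signals, median centring, the authors' deposited table, no dye term, no replicate block, and without replicates 3 and 6, and 0 to 1 with 1 replicate left out. For Tgfbr2 probe 2 the adjusted p was 0.0801, 0.0899, 0.0776 and 0.129 in the first 4 of these. Tgfbr2 probe 1 has no value under the stricter filter, and single probes have none with the mean of a gene's probes.

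Direction reversed in 26 of 333 values of the 18 probes, all uncalled and near 0. Ski turned to 0.020 with processed signals and with the authors' deposited table, 0.0011 with an offset of 10, 0.0043 with outlier spots kept and 0.015 with the mean of its probes. Under median centring Ski probe 3 gave -0.0014, Skil 8.8e-04 and Tgfbr2 -0.058. Without replicates 3 and 6, Skil gave 0.0042 and Tgif1 0.0047. Tgfbr2 probe 1 gave -0.022 with processed signals and -0.059 with the authors' deposited table, and Smad6, outside the 10, gave -0.079 with either. With 1 replicate left out, Ski ran from -0.027 to 0.016, its probe 1 from -0.016 to 0.087, Skil from -0.027 to 0.023, its probe 1 from -0.15 to 0.048, Smad2 from -0.018 to 0.028, Smad3 from -0.0029 to 0.062, Tgfbr2 from -0.057 to 0.22 and its probe 1 from -0.015 to 0.028. The cause was not tested. With 6 arrays, differences near the standard error of 0.0481 could not be resolved. Some larger ones also missed the adjusted threshold, such as Smad5 at -0.19 (limma, adjusted p = 0.0579).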
